A study of Mus musculus with 6 samples.

Results

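The genes described here carry the retinoic acid pathway in mouse pluripotent cells. They are the retinoic acid receptors Rara, Rarb and Rarg, the retinoid X receptors Rxra and Rxrb, the retinoic acid binding proteins Crabp1 and Crabp2, the retinoic acid hydroxylase Cyp26a1 and the retinol transporter Stra6. These 9 genes were chosen by name from the 24736 genes in the table, and all 9 were found. RNA was sequenced from wild-type embryonic stem cells (ESCs, 0 h) and from epiblast-like cells (EpiLCs) made from them in 48 h, in 3 biological replicates per group. EpiLCs are a culture model of the epiblast after implantation. All libraries came from the male (XY) HM1 TetON line, which carries the doxycycline transactivator and served as the WT control of the study, so the data describe 1 genetic background. ESCs grew on mouse embryonic fibroblast feeders in DMEM knockout medium with 10% serum and 1000 U/ml LIF, a cytokine that maintains self-renewal. EpiLCs grew without serum or LIF in N2B27 with 10 ng/ml bFGF and 5 µM LGK974, which blocks the secretion of WNT ligands. Basal medium, supplements, serum, feeders, LIF, FGF, LGK974 and time changed together between the groups and cannot be told apart. The sample labels and the results of the study give 48 h for EpiLCs, which is used here, whereas its culture methods state a longer time.

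Retinoic acid is made from vitamin A (retinol) by dehydrogenases and acts as a ligand inside the cell. RARs bind it and, paired with an RXR, occupy direct repeats of a short motif in DNA. Without ligand the pair recruits corepressors, and with ligand it exchanges them for coactivators and activates nearby genes. CYP26 enzymes break retinoic acid down and so limit where the signal reaches, and their genes are themselves classic targets of the receptors. In pluripotent cultures retinoic acid is best known as an inducer of differentiation, and in the embryo as a signal that patterns the trunk and hindbrain.

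Libraries held from 16967741 to 35096210 expected counts, at which 3 counts correspond to between 0.0855 and 0.177 CPM (counts scaled to library size), a limit that covers counting error only. Levels are given as TPM, which is scaled for transcript length and library, and differences as log2 fold changes of EpiLC minus ESC from edgeR's quasi-likelihood test, with Benjamini-Hochberg adjustment over the 14468 genes tested. Markers followed the labels, as 9 of 9 naive ESC markers were lower and 7 of 7 EpiLC markers higher in EpiLCs. Nanog, a naive pluripotency factor, lay between 290.33 and 371.65 TPM in ESCs and between 5.95 and 22.48 TPM in EpiLCs, and Pou3f1, an epiblast factor, between 8.36 and 11.34 TPM and between 149.83 and 186.39 TPM. Markers of other cell types also differed. Of 17 fibroblast markers tested, 11 were lower in EpiLCs and 0 higher. The list summed to 1402 TPM in ESC replicate 1, 3269 TPM in replicate 2 and 745 TPM in replicate 3. In EpiLCs it summed to 162 to 243 TPM. Fn1 alone was at 910.98, 1239.53 and 561.44 TPM in those ESC libraries and at 63.92 to 119 TPM in EpiLCs. The 6 markers not called included Thy1 (log2 fold change 0.054, edgeR adjusted p = 0.921). Fn1 and Thy1 were named after their values were seen. Col1a1, a fibroblast collagen, was at 489.12 TPM in ESC replicate 2 and at 3.08 to 13.9 TPM in EpiLCs, whereas Lum was at or near 0 in all libraries. Primitive endoderm markers summed to between 82.2 and 152 TPM in ESCs and between 40.9 and 54.1 TPM in EpiLCs (6 of 9 tested lower), with Afp and Ttr at or near 0 and with Gata6 at 7.40 to 14.96 TPM in ESCs and 0.32 to 0.48 TPM in EpiLCs. Neural markers summed to between 99.5 and 134 TPM in ESCs and between 175 and 213 TPM in EpiLCs (1 of 5 tested higher). Sox1 was below 1 TPM throughout. Tubb3 and Nes made up most of these sums, with means of 65.8 and 41.5 TPM in ESCs and 121 and 74.1 TPM in EpiLCs. Pax6 went the other way, from a mean of 2.75 to 1.56 TPM (log2 fold change -0.88, edgeR adjusted p = 0.0544). Tubb3, Nes and Pax6 were named after their values were seen.

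Of the 9 genes, 8 had enough counts to be tested, 3 were higher in EpiLCs (Crabp2, Rarg, Stra6) and 2 lower (Cyp26a1, Rara). Of all genes tested, 45.4% were called, 22.6% higher and 22.8% lower, so a call by itself does not set these genes apart. Changes over 2-fold were rarer, with 8.78% of genes higher and 11.5% lower by that much. Crabp2 and Stra6 were among the former and Cyp26a1 and Rara among the latter. Ranked by fold change among called genes, Cyp26a1 was number 57 of 3304 lower genes and Crabp2 number 92 of 3267 higher genes. In these bulk samples, fewer expressing cells and less RNA per cell cannot be told apart.

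**Figure D1:**
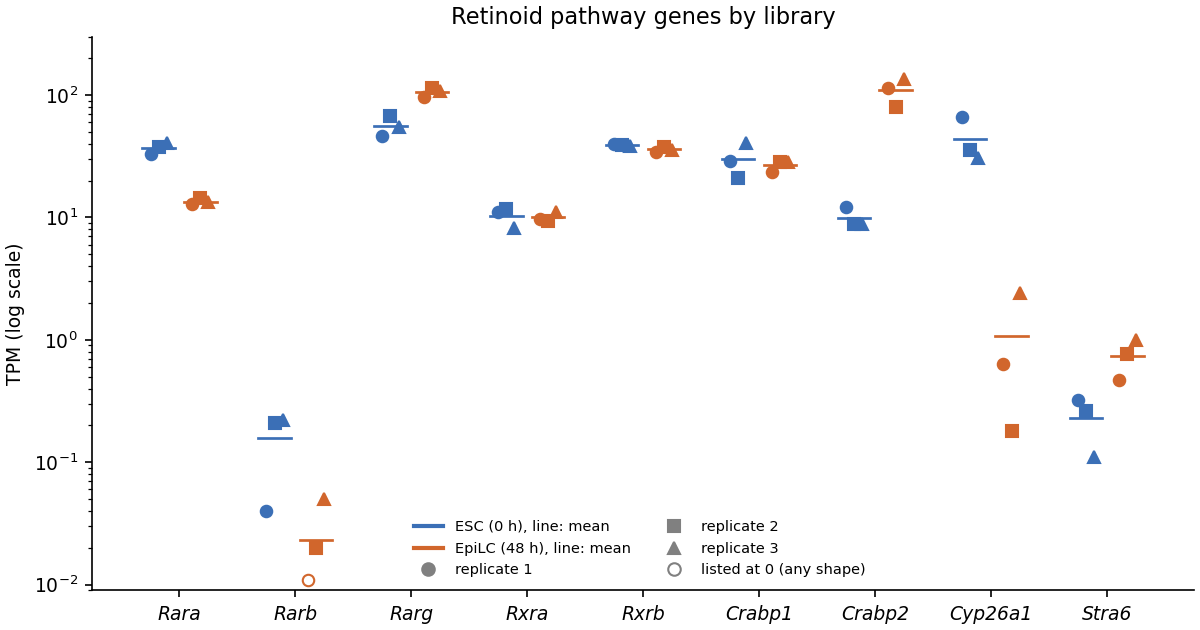
Level of the 9 genes in TPM (log axis) in each of 3 ESC libraries (blue) and 3 EpiLC libraries (orange), with a line at each group mean and an open circle for a value listed at 0. The groups of Rara, Rarg, Rxrb, Crabp2, Cyp26a1 and Stra6 do not overlap. Among the genes without a value of 0, Cyp26a1 spans the widest range on the log axis, from 66.42 to 0.18 TPM.

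**Figure D2:**
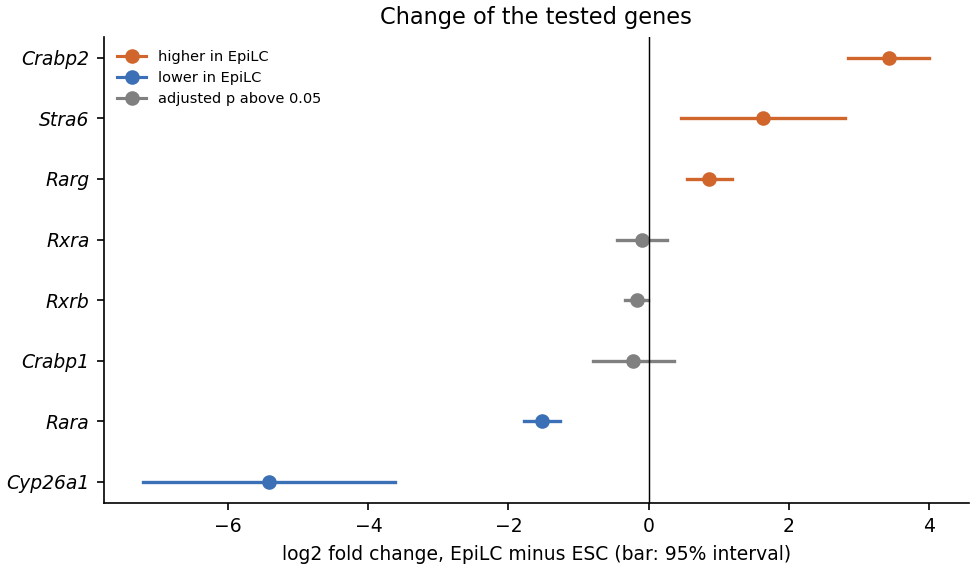
Log2 fold change of EpiLC minus ESC for the 8 genes tested (x axis), each point with its 95% interval, coloured by the call. Crabp2 lies at 3.43 and Cyp26a1 at -5.42, and the intervals of Rxra and Crabp1 cross 0.

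Rara and Rarg, which encode the ligand-binding receptors RARα and RARγ, moved in opposite directions. In the order of replicates 1 to 3, which is kept throughout, Rara was measured at 32.79, 37.76 and 41.00 TPM in ESCs and 12.79, 14.36 and 13.37 TPM in EpiLCs. Every EpiLC library was below every ESC library, and the EpiLC libraries lay close together. The mean went from 37.2 ± 4.14 to 13.5 ± 0.794 TPM (SD, n = 3). On normalized counts, edgeR fitted a 2.87-fold fall (log2 fold change -1.52, SE 0.11, edgeR adjusted p = 1.54e-04).

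Rarg, by contrast, was the more abundant receptor in all libraries and rose. It was at 46.55, 67.04 and 54.57 TPM in ESCs and at 96.60, 114.37 and 108.10 TPM in EpiLCs. The groups did not overlap, and the lowest EpiLC library was well above the highest ESC library. The mean went from 56.1 ± 10.3 to 106 ± 9.01 TPM (SD, n = 3), and edgeR fitted a 1.82-fold rise on counts (log2 fold change 0.87, SE 0.14, edgeR adjusted p = 0.00268). Across the genes tested, 59.5% had TPM groups that did not overlap.

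Rarb, the receptor gene that retinoic acid itself is known to induce, was near the limit of detection. Its TPM was 0.04, 0.21 and 0.22 in ESCs and 0, 0.02 and 0.05 in EpiLCs, from 1, 5 and 8 counts and from 0, 1 and 2 counts. The groups overlapped, since ESC replicate 1 was below EpiLC replicate 3. Rarb did not pass the filter on low counts and was not tested with the others. Pooled over libraries, 14 counts in ESCs and 3 in EpiLCs give an ESC to EpiLC ratio of 6.89, with a 95% counting interval of 1.92 to 37.4 that leaves out the spread between replicates. Fitted without the filter, its log2 fold change was -2.63 and did not pass the threshold (edgeR adjusted p = 0.0782).

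Because TPM is scaled for length, the receptors can be set against each other within a library. Rara made up 41.3%, 35.96% and 42.8% of the summed RAR transcripts in the ESC libraries and 11.3% ± 0.363 (SD, n = 3) in EpiLCs, where its highest share was 11.7%. Rarg made up most of the remainder, 59.8% ± 3.58 in ESCs and 88.7% ± 0.344 in EpiLCs (SD, n = 3). The EpiLC shares were almost the same in the 3 replicates. The log2 ratio of Rara to Rarg went from -0.58 ± 0.22 to -2.98 ± 0.05, a difference of -2.39 (two-sided exact permutation test, p = 0.1, adjusted p = 0.15 over 3 ratios). With 3 libraries a group, 0.1 is the smallest p that this test can give. The 3 receptors summed to 93.4 ± 13.0 TPM in ESCs and, 1.28-fold higher, to 119.9 ± 9.78 TPM in EpiLCs (SD, n = 3, exact permutation p = 0.1), a smaller difference than that of either Rara or Rarg.

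Among the RXRs, the shared partners of RARs and of other nuclear receptors, Rxra and Rxrb differed little. Rxra was at 11.07, 11.74 and 8.19 TPM in ESCs and at 9.79, 9.29 and 11.07 TPM in EpiLCs. The groups overlapped, and the log2 fold change of -0.09 had a 95% interval of -0.45 to 0.26 (edgeR adjusted p = 0.635). Rxrb, the more abundant of both, was at 39.71, 39.15 and 38.21 TPM in ESCs and at 34.38, 37.74 and 35.87 TPM in EpiLCs. Its EpiLC libraries were all below the ESC libraries by a small margin, with a log2 fold change of -0.17 and an interval of -0.33 to -0.0072 (edgeR adjusted p = 0.0819). The remaining RXR gene, Rxrg, rose from 1.83, 1.12 and 0.88 TPM in ESCs to 6.55, 5.27 and 12 TPM in EpiLCs (log2 fold change 2.63, SE 0.44, edgeR adjusted p = 0.00343). Its share of the RXR transcripts went from 2.498% ± 0.862 to 14.5% ± 5.31 (SD, n = 3), and in every library it was below that of Rxrb. Together the RXRs reached 50.6 ± 2.92 TPM in ESCs against 54.0 ± 4.36 TPM in EpiLCs (SD, n = 3, exact permutation p = 0.5).

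**Figure D3:**
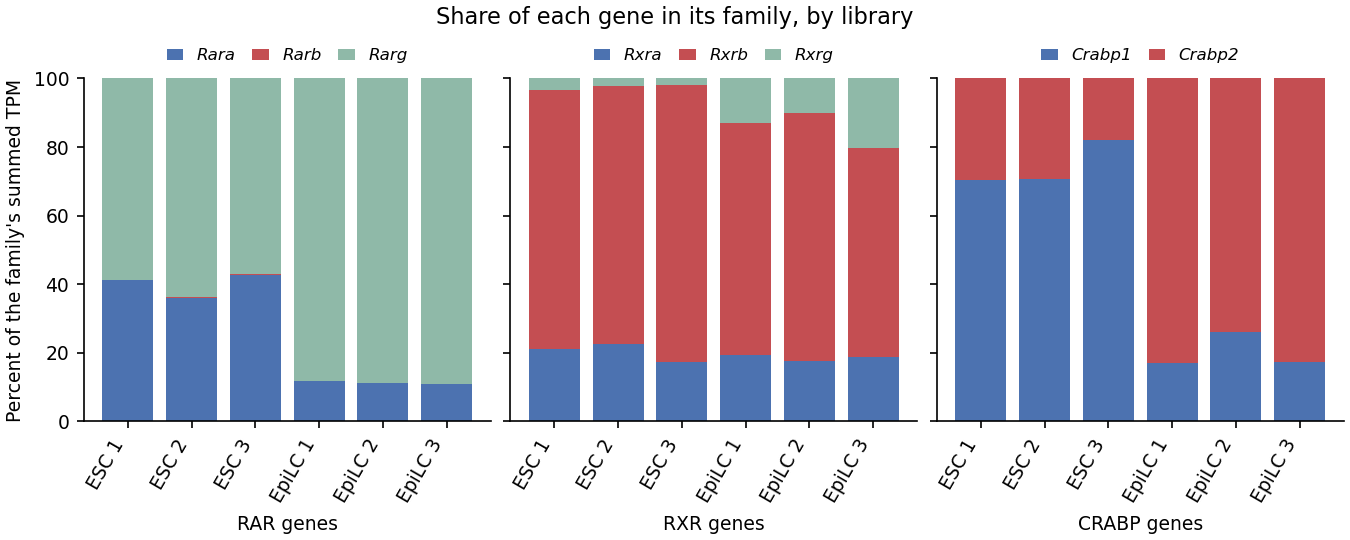
Share of each gene in the summed TPM of its family (percent, y axis) in each of 6 libraries, for the RAR, RXR and CRABP genes. Rara holds between 35.96% and 42.8% of RAR transcripts in ESCs and at most 11.7% in EpiLCs, and the larger CRABP share passes from Crabp1 to Crabp2.

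The cellular retinoic acid binding proteins showed a reversal of order. Crabp2, whose protein carries retinoic acid to the receptors in the nucleus, was at 12.11, 8.82 and 8.79 TPM in ESCs and at 114.26, 80.63 and 136.62 TPM in EpiLCs. The lowest EpiLC library was several times above the highest ESC library. Its mean went from 9.91 ± 1.91 to 110.5 ± 28.2 TPM (SD, n = 3), and the fitted rise on counts was 10.8-fold (log2 fold change 3.43, SE 0.25, edgeR adjusted p = 1.56e-04).

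Crabp1, whose protein holds retinoic acid in the cytoplasm, was at 28.77, 21.19 and 40.28 TPM in ESCs and at 23.69, 28.59 and 28.62 TPM in EpiLCs. The groups overlapped, and ESCs held both the lowest and the highest library. Its log2 fold change was -0.22 with a 95% interval of -0.80 to 0.36 (edgeR adjusted p = 0.493). Crabp1 made up 70.4%, 70.6% and 82.1% of CRABP transcripts in ESCs and 17.2%, 26.2% and 17.3% in EpiLCs. The log2 ratio of Crabp1 to Crabp2 went from 1.57 ± 0.54 to -2.01 ± 0.44 (SD, n = 3), a difference of -3.58 (two-sided exact permutation p = 0.1, adjusted p = 0.15 over 3 ratios). The sum of both genes went from 40.0 ± 9.56 to 137 ± 28.0 TPM, a 3.44-fold difference (exact permutation p = 0.1).

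Cyp26a1 encodes the main retinoic acid hydroxylase of the early embryo and is among the best known direct targets of RARs. Together with Rarb it was the only gene, of the 8 with a promoter window, with a direct repeat spaced by 5 bases (DR5, the classic binding site of the RAR-RXR pair) near an annotated start. The search covered 300-base windows around starts in the RefSeq table, which can lie within a gene (250 bases before and 50 after) on both strands, for the motif AGGTCA or its variants AGTTCA and GGGTCA and GGTTCA, followed after 5 bases by any of these. The 8 genes had 17 windows in all, and Crabp2 had none. Both sites are shown, from the RefSeq tables on GRCm38.p6 and on the minus strand, with the repeat and its spacer in capitals, because they let the sequence of these genes be set beside their levels.
Rarb, chr14:16575506-16575535: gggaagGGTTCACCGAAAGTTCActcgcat
Cyp26a1, chr19:37697769-37697798: caaattAGTTCACCCAAAGTTCAtctttaa
The Rarb repeat lies 53 to 37 bases before an internal start at position 16575476, on which its window was built. It lies 506802 bases inside the outer start of the RefSeq gene (position 17082331), on the strand of the gene, and within the UTR of 2 of 7 GENCODE vM21 transcripts. The Cyp26a1 repeat lies 32 to 16 bases before the start of its window at position 37697808, but 38 to 54 bases inside the outer start of the RefSeq gene (position 37697738). It is on the strand opposite to the gene and outside the exons of its 2 GENCODE transcripts. The repeats are identical at 15 of 17 bases, with 6 of 6 in the second motif, 5 of 6 in the first and 4 of 5 in the spacer. Such a DR5 was present in 32 of 32851 windows of the genome, or 0.0974%. Repeats spaced by 2 or 1 bases, found in 0.268% and 0.222% of windows, had no match in the 17 windows, which says only that these letters are not there. A match is a description of the sequence, and the RNA data do not measure binding.

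These genes with like repeats differed widely in level. Cyp26a1 was at 66.42, 35.28 and 30.45 TPM in ESCs, whereas Rarb did not exceed 0.22 TPM in the same libraries. In EpiLCs, Cyp26a1 was at 0.63, 0.18 and 2.42 TPM, from 18, 5 and 61 counts. Every EpiLC library was far below every ESC library, and EpiLC replicate 3 was the highest of its group. The mean went from 44.1 ± 19.5 to 1.08 ± 1.18 TPM (SD, n = 3), and the fitted fall on counts was 42.8-fold (log2 fold change -5.42, SE 0.76, 95% interval -7.21 to -3.63, edgeR adjusted p = 0.00172). Without EpiLC replicate 3 the log2 fold change was -6.78, and without EpiLC replicate 2 it was -4.90, the lowest and highest values on leaving out 1 library. Of the 31 genes with the repeat near a start, 6 were tested, and Ppbp was also lower while Blvrb and Prokr2 were higher (named after their values were seen).

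Cyp26a1 moved with markers of the primitive streak, the site of gastrulation. Their summed level was 558, 231 and 188 TPM in the ESC libraries, compared with 11.4, 10.7 and 71.95 TPM in the EpiLC libraries, and 7 of 10 were called lower and 0 higher. T, the defining streak factor Brachyury, was at 179.94, 73.02 and 40.01 TPM in ESCs and at 0.87, 0.69 and 30.69 TPM in EpiLCs. EpiLC replicate 3 came close to ESC replicate 3, and T was not among the 7 (log2 fold change -3.23, edgeR adjusted p = 0.0925). Nkx1-2, also not called, was highest in EpiLC replicate 3, at 17.55 TPM (log2 fold change 0.28, edgeR adjusted p = 0.850, named after its values were seen). The same order of the 6 libraries, from ESC replicate 1 down to EpiLC replicate 2, held without ties for Cyp26a1 and 3 of the 10 streak markers, T among them. It held for 87 of the other genes tested (0.601%). The 3 genes of at least 10 CPM whose log2 profile over the 6 libraries lay nearest to that of Cyp26a1 were Lhx1 (Euclidean distance 0.632), Lefty2 (1.19) and Fgf8 (1.56), and Fgf8 is itself in the streak list. The part of streak-like cells in the Cyp26a1 difference was not tested.

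**Figure D4:**
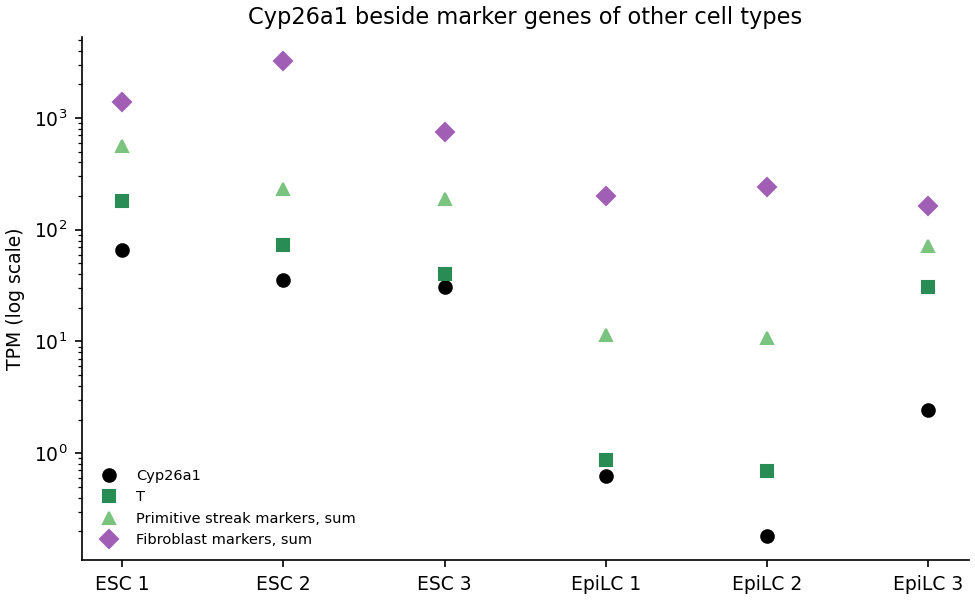
Cyp26a1 and T in TPM, and the summed TPM of 10 primitive streak markers and 18 fibroblast markers, in each of 6 libraries (log axis). Cyp26a1, T and the streak sum are highest in ESC replicate 1, and EpiLC replicate 3 is the highest EpiLC library for all 3, whereas the fibroblast sum is highest in ESC replicate 2.

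The other CYP26 genes were at low levels. Cyp26b1, which encodes a related hydroxylase, was at 1.53, 1.06 and 0.57 TPM in ESCs and at 0.13, 0.09 and 0.18 TPM in EpiLCs, and fell (log2 fold change -3.03, SE 0.46, edgeR adjusted p = 0.00232). Cyp26c1 had at most 1 count in any library and was not tested. Cyp26a1 made up between 97.1% and 98.0% of the CYP26 transcripts in ESCs. The 3 genes summed to 45.1 ± 19.9 TPM in ESCs, 36.9-fold above the 1.22 ± 1.21 TPM of EpiLCs (SD, n = 3, exact permutation p = 0.1).

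Stra6, whose product takes up retinol from retinol-binding protein at the cell surface, was at low levels in all libraries. It was at 0.32, 0.26 and 0.11 TPM in ESCs and at 0.47, 0.76 and 1.00 TPM in EpiLCs, from 10, 6 and 4 counts and from 22, 34 and 41 counts. The groups did not overlap but came close. The fitted rise of Stra6 on counts was 3.10-fold (log2 fold change 1.63, SE 0.50, 95% interval 0.46 to 2.81, edgeR adjusted p = 0.0332). The call was lost without ESC replicate 3 (edgeR adjusted p = 0.0735), EpiLC replicate 2 (0.0860) or EpiLC replicate 3 (0.105). It was also lost in the fit blocked by replicate number (edgeR adjusted p = 0.0751). Its relative Stra6l, also a retinol transporter, went the other way, from 0.91, 0.49 and 0.55 TPM to 0.13, 0.09 and 0.31 TPM (log2 fold change -1.89, edgeR adjusted p = 0.0238), a call lost without ESC replicate 1, EpiLC replicate 1 or EpiLC replicate 2 (largest edgeR adjusted p = 0.0959).

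The genes nearest in profile to Crabp2 were Fam131b (distance 0.677), Dtx4 (0.691) and Sall2 (0.700). For Stra6 they were Fam19a5 (0.766), Aif1l (0.829) and Gprc5c (0.845). All 6 were called higher in EpiLCs, which follows from how they were chosen.

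Beyond these genes, 81 other genes of the pathway were described from 6 lists by role. Of 63 tested, 11 were higher (17.5%) and 27 lower (42.9%), against 22.6% and 22.8% over all genes, the shares to read the counts of each list against, with a median log2 fold change of -0.35 against -0.0017 over all genes tested. Without EpiLC replicate 1, 7 were higher and 19 lower. Among 4 tested genes of retinol uptake and storage, 1 was higher and 1 lower. Rbp7, an intracellular retinol carrier, rose (log2 fold change 1.92, edgeR adjusted p = 0.00735), and Stra6l fell.

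The genes of the synthesis list, which also holds enzymes that return retinaldehyde to retinol, were mostly not called. Of 11 tested, 2 were higher, 1 lower and 8 not called (median -0.11). Rdh11, a retinaldehyde reductase, rose from between 45.33 and 62.32 TPM to between 88.98 and 142.84 TPM (log2 fold change 1.17, edgeR adjusted p = 0.00359). Rdh10, which makes retinaldehyde from retinol, had a log2 fold change of -0.11 (95% interval -0.86 to 0.63, edgeR adjusted p = 0.788). Aldh1a2, which makes retinoic acid in the early embryo, was between 1.36 and 2.31 TPM in all libraries (log2 fold change -0.32, 95% interval -0.91 to 0.27, edgeR adjusted p = 0.330).

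Among genes of clearance and transport outside the 9, 4 of 5 were tested, 3 lower and 1 higher (median -2.71). Fabp5, a fatty acid binding protein that can also carry retinoic acid, rose from 94.01, 101.94 and 77.88 TPM to 231.39, 216.32 and 249.05 TPM (fitted 2.46-fold, log2 interval 1.03 to 1.57, edgeR adjusted p = 2.94e-04). Cyp2s1, another P450 enzyme, fell (log2 fold change -2.40, edgeR adjusted p = 1.50e-04). Cyp1b1, also a P450 enzyme, fell from 16.40, 61.30 and 5.23 TPM to 0.74, 1.48 and 0.35 TPM (log2 fold change -5.04, SE 1.01, edgeR adjusted p = 0.00705). Without ESC replicate 2 the log2 fold change of Cyp1b1 was -3.69, and without EpiLC replicate 2 it was -5.67. Within each group its libraries followed the order of Col1a1 and of the fibroblast sum, whose part in the difference was not tested.

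Of 15 other nuclear receptors tested, 4 were higher and 4 lower (median -0.15). Besides Rxrg, the orphan receptor Nr6a1 (GCNF), a repressor of pluripotency genes, rose (log2 fold change 1.62, edgeR adjusted p = 2.14e-04). Nr0b1 (DAX1), a receptor-like factor of naive cells without a DNA-binding domain of the usual kind, fell from between 53.68 and 76.53 TPM to between 1.58 and 2.42 TPM (log2 fold change -5.09, edgeR adjusted p = 4.23e-05). Nr4a1 and Nr4a2, immediate early receptors that can pair with RXRs, also fell (log2 fold change -2.23 and -1.97, edgeR adjusted p = 8.07e-04 and 0.0171), the latter a call lost without any 1 EpiLC library (adjusted p up to 0.0643).

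All 19 receptor coactivators and corepressors were tested, with 10 lower and 3 higher (median -0.35). Most changes were small. Ncor1, a corepressor of unliganded RARs, fell (log2 fold change -0.44, edgeR adjusted p = 0.00396). The coactivator Ncoa3 fell from between 50.52 and 60.49 TPM to between 26.05 and 27.53 TPM (log2 fold change -1.13, edgeR adjusted p = 1.66e-04), and Zfp423, a zinc finger cofactor of RARs, fell by 1.11 on the log2 scale (edgeR adjusted p = 0.00466).

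The 16 genes listed as known targets of retinoic acid moved in 1 direction. Of 13 tested, 9 were lower in EpiLCs, 8 of them over 2-fold, and 0 were higher (median -1.67). They included the homeobox genes Cdx1 (log2 fold change -5.10, edgeR adjusted p = 0.00434), Hoxb4 (-2.12, 0.0220), Meis1 (-2.22, 0.0143) and Meis2 (-1.87, 0.0184), which pattern the body axis. On leaving out 1 library, the value of Cdx1 ranged from -7.27 without EpiLC replicate 3 to -4.48 without ESC replicate 2, and on the log2(TPM + 1) scale it was -1.96. The transglutaminase Tgm2 (-1.58, 0.00281), the repressor Bhlhe40 (-2.10, 0.00278) and the corepressor Nrip1 (-0.84, 0.00752) also fell. Dhrs3, which returns retinaldehyde to retinol, was at 0.36, 1.39 and 0.64 TPM in ESCs and at 0.17, 0.16 and 0.34 TPM in EpiLCs (-1.67, edgeR adjusted p = 0.0565), which passed the threshold without ESC replicate 1 (-2.05, edgeR adjusted p = 0.0293). Without ESC replicate 2, its highest library, it was -1.09 (edgeR adjusted p = 0.134).

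All the targets called lower but Bhlhe40 were below 10 TPM in ESCs, and they shared their highest ESC library with the fibroblast sum. ESC replicate 2, which had the highest fibroblast sum, was the highest ESC library for 9 of the 9 targets called lower, for 10 of 11 fibroblast markers called lower, and for 39.9% of all genes called lower. Meis2, for instance, was at 3.09, 3.89 and 0.98 TPM in ESCs, compared with 0.68 to 0.80 TPM in EpiLCs. Tgm2, at 4.23, 7.56 and 4.80 TPM in ESCs, did not follow the order of the fibroblast sum in the other ESC libraries. Without ESC replicate 2, 9 targets were still called lower, but 5 were without EpiLC replicate 1 or without EpiLC replicate 2, and Hoxb4, Meis1 and Meis2 were among those that lost the call in at least 1 such fit, and Hoxb4 and Meis2 lost it without ESC replicate 1 or EpiLC replicate 3 as well. Over the fits that lost it, their log2 fold changes stayed between -2.30 and -1.75, with edgeR adjusted p between 0.0535 and 0.0830. Before differentiation, the study removed feeders by letting them attach in brief platings, and whether the 0 h libraries had this step is not given in the sources used here. The part of fibroblasts, streak-like or endoderm-like cells in the levels of these targets was not tested.

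**Figure D5:**
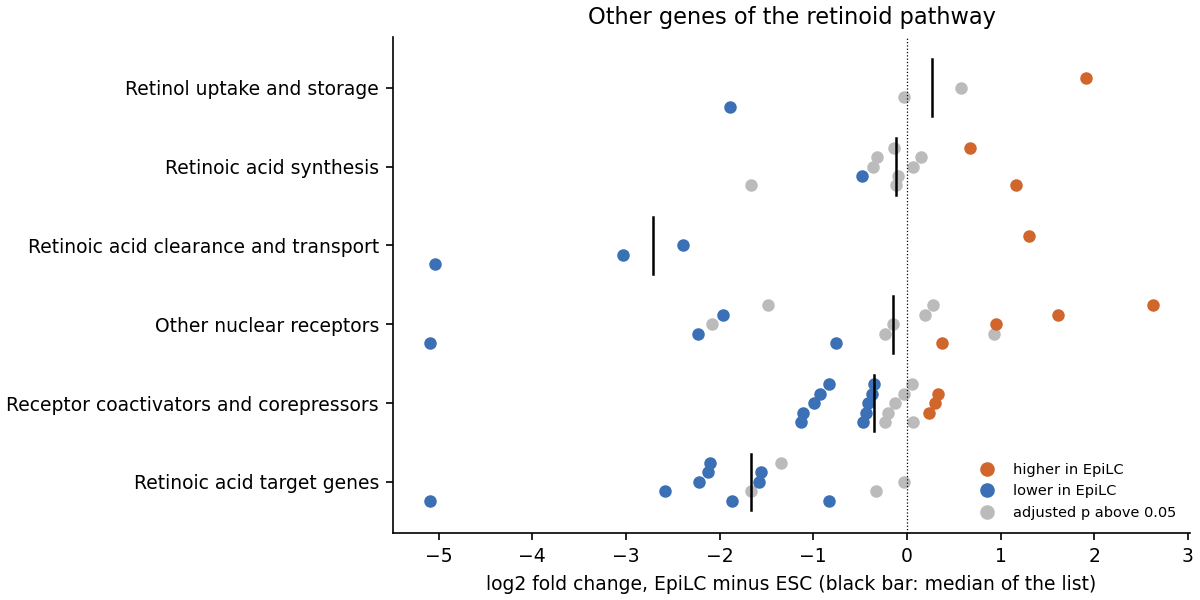
Log2 fold change of EpiLC minus ESC (x axis) for each tested gene of the 6 pathway lists, coloured by the call, with a black bar at the list's median. The retinoic acid target genes and the clearance and transport genes lie furthest to the left, with medians of -1.67 and -2.71.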

How the data were processed

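Poly(A) RNA of 6 libraries (3 ESC, 3 EpiLC) was read as single-end, strand-specific reads of 76 nt. The authors trimmed adapters with cutadapt 1.16, aligned reads with STAR 2.5.2a and counted them per mm10 RefSeq gene with RSEM 1.3.0, with versions as in the submitters' processing notes, which also name DESeq2 1.16.1. The authors deposited RSEM expected counts, which divide reads that map to several genes, and TPM, scaled by RSEM for length and depth. Between 4.27% and 4.65% of expected counts per library were not whole, but those of the 9 genes were. Groups and replicate numbers come from the sample titles, which call the replicates biological.

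Expected counts were rounded and tested with edgeR 4.0.16 (R 4.3.3): TMM scaling (0.979 to 1.02), filterByExpr, the two-sided quasi-likelihood test without a block, Benjamini-Hochberg adjustment over 14468 genes and a threshold of 0.05. Intervals are 95% t intervals. Scripts were tested on simulated data. Ratios and family sums of TPM were compared with exact permutation tests over libraries. Of 5 ratios planned, 3 were computed, since Rarb was listed at 0 in 1 library. The genes and lists were chosen with earlier results of these data known. Genes named are the 9, the pathway genes called with an absolute log2 fold change above 1, the defining markers, 10 pathway genes named whatever their values (some genes under this rule are not reported here), and, for each of the 3 called genes that changed most, the 3 with the nearest profile (log2 CPM, prior count 2). Nrip1 was named after its values were seen. Alternatives were DESeq2 1.42.0, upper-quartile scaling, DESeq2 size factors in edgeR, no filter, at least 10 counts in every library, limma 3.58.1 on log2(TPM + 1) and log2(TPM + 0.1), a replicate block, leaving out each library and, for the ratios, a pseudocount of 0.1 TPM or CPM. Promoter windows and gene starts are of RefSeq on GRCm38.p6, the build called mm10, with transcripts of GENCODE vM21.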

Additional observations from a re-analysis of the deposited data

How the results depend on the processing

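The calls of Rara, Rarg, Crabp2 and Cyp26a1 kept their direction and stayed past the threshold in every fit that tested them. The filter of at least 10 counts in every library left Cyp26a1 and Stra6 untested, so that 1 of the 9 genes was lower and 2 were higher. The replicate block left Stra6 short of the threshold (log2 fold change 1.61), with 2 of the 9 genes higher and 2 lower and 9 pathway genes higher and 28 lower. Same-numbered libraries deviated together only weakly (r = 0.0067, 0.186 and 0.170 for numbers 1, 2 and 3). ESC replicates 2 and 3 correlated best with the EpiLC library of their own number, and ESC replicate 1 with EpiLC replicate 3 (r = 0.0836). As these correlations were weak, the numbers were not taken to pair the libraries. Leaving out each library in turn, with 2 left in that group, gave log2 fold changes from 1.23 to 2.02 for Stra6, from -0.22 to 0.00095 for Rxra and from -0.42 to 0.068 for Crabp1, and differences from -0.053 to 0.19 for the log2 ratio of Rxra to Rxrb. It gave 2144 to 3572 higher and 2100 to 3609 lower genes over all genes, 7 to 11 higher pathway genes and 5 to 9 lower target genes, the lowest of each without EpiLC replicate 1. Rdh10 turned to 0.0084 with limma on log2(TPM + 1) and 0.020 on log2(TPM + 0.1), and ranged from -0.40 to 0.21 without 1 library. On the log2(TPM + 1) scale, which understates changes of low genes, limma gave 0.50 for Stra6, -0.83 for Cyp26b1, -0.48 for Stra6l and -0.75 for Hoxb4, all still past the threshold. Other causes were not tested. Upper-quartile scaling moved the share of calls that were higher from 49.7% to 52.9%, and limma on log2(TPM + 1) to 57.4%. Depth limits Rarb, Cyp26c1 and Stra6, which had few counts.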
